A study of Sus scrofa with 12 samples.

Results

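CatSper is the calcium channel of the sperm flagellum. Its pore is formed by CATSPER1, CATSPER2, CATSPER3 and CATSPER4, and CATSPERB, CATSPERD and CATSPERG are auxiliary subunits of the same complex. The channel opens as the inside of the sperm becomes more alkaline, and the calcium that enters drives hyperactivated motility. KCNU1 is the sperm potassium channel (SLO3), HVCN1 is a voltage-gated proton channel and SLC9C1 is the sodium/proton exchanger of sperm, and these set the membrane voltage and pH on which the channel depends. The 10 genes described here were taken from the coding-gene table by symbol, and all 10 were found among its 21674 mRNAs. They were chosen as genes of sperm ion transport, with earlier results of these data known. Of the 10, 4 are pore-forming subunits, 3 are auxiliary subunits and 3 are KCNU1, HVCN1 and SLC9C1.

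RNA was taken from the testes of Hezuo boars (HZ), a Chinese miniature breed that matures early, and of Landrace boars (LC), at 30 and 120 days of age. There were 3 boars and 3 libraries in each of the 4 groups, namely 30-day-old HZ (Ha), 120-day-old HZ (Hb), 30-day-old LC (La) and 120-day-old LC (Lb). The labels name no treatment, and whole testis was used, so germ cells and somatic cells were sequenced together. Summed over all mRNAs, the smallest library held 17165519 estimated counts and the largest 23758931.

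CPM values are estimated counts scaled to a common library size by TMM, and FPKM values, as deposited, also take transcript length into account. Levels of different genes are compared by FPKM only. A gene was called when edgeR's quasi-likelihood test gave a Benjamini-Hochberg adjusted p under 0.05 over all mRNAs tested together with an absolute log2 fold change over 1. Each fold change is that of the group named second relative to the group named first. Where all libraries of a group rounded to 0, the fold is a lower bound against 3 counts over that group, which covers the counting error of that group only. Relabelling 3 boars against 3 cannot give an exact permutation p below 0.1 for a gene, so each adjusted p rests on the variance that edgeR models across genes.

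The comparison of ages asked which of these genes change as the testis matures. Of the 10 genes, 8 were called higher at 120 days in HZ (Ha vs Hb), and the same 8 in LC (La vs Lb), and none was called lower. These were CATSPER1, CATSPER2, CATSPER3, CATSPER4, CATSPERB, CATSPERD, CATSPERG and SLC9C1. HVCN1 was tested and not called, and KCNU1 did not pass the filter on low counts. In each of the 8 genes all 3 libraries at 120 days lay above all 3 at 30 days in both breeds, as did 38.6% of all mRNAs tested in HZ and 38.6% of those tested in LC, where chance alone gives 5% in that direction (10% in either direction). Of all mRNAs tested, 28.2% were called higher and 23.2% lower in Ha vs Hb, and 27.5% were called higher and 20.1% lower in La vs Lb. Of the 9 genes tested, 6 in HZ and 7 in LC had fewer than 3 libraries over the filter on low counts at 30 days. Those would not have passed on the 30-day libraries alone. In each breed 3 of them, CATSPER1, CATSPER4 and SLC9C1, had no 30-day library over the filter, so their direction was not free to differ. The count of calls thus carries less than its size.

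**Figure D1:**
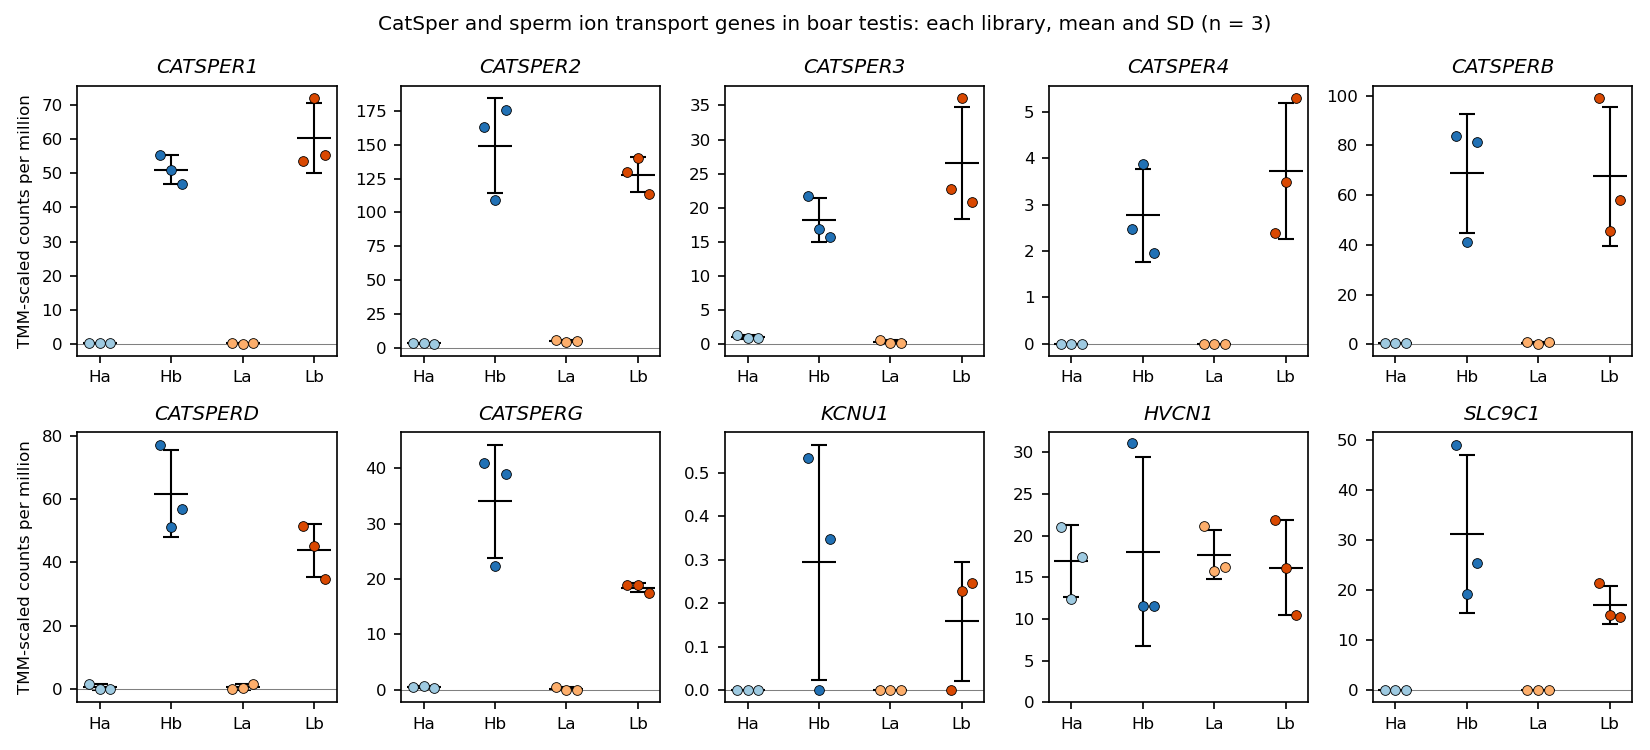
TMM-scaled CPM of the 10 genes, each panel on its own linear axis. Points are libraries, horizontal lines are group means and bars are SDs (n = 3) for 30-day-old HZ (Ha), 120-day-old HZ (Hb), 30-day-old LC (La) and 120-day-old LC (Lb) boars. In 8 panels the 120-day libraries stand above the 30-day libraries, while the 4 groups of HVCN1 overlap and KCNU1 does not exceed 0.533 CPM.

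Among the pore-forming subunits, CATSPER1 had between 0 and 7 counts in each library at 30 days. Its level was 0.230, 0.0803 and 0.194 CPM in the libraries of Ha and 55.3, 51.0 and 46.9 CPM in those of Hb. In LC it was 0.297, 0 and 0.119 CPM in La and 53.6, 72.1 and 55.5 CPM in Lb. The gene was thus close to absent at 30 days, and ranges at the 2 ages were far apart. Its log2 fold change was 8.19 (standard error 0.31, edgeR adjusted p = 2.14e-06) in HZ and 8.66 (standard error 0.43, edgeR adjusted p = 6.73e-07) in LC. With each library left out it ran from 7.86 to 8.47 in HZ and from 8.16 to 9.72 in LC.

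CATSPER2 differed from the others in having a readily counted level at 30 days. It was at 3.18, 3.37 and 3.03 CPM in Ha and at 163, 110 and 176 CPM in Hb. In LC the libraries of La held 5.64, 4.02 and 4.73 CPM and those of Lb 130, 140 and 114 CPM. All 6 libraries at 30 days lay over the filter, so the direction of this gene was free to differ. The log2 fold change was 5.55 (standard error 0.23, edgeR adjusted p = 3.14e-06) in HZ and 4.75 (standard error 0.16, edgeR adjusted p = 1.08e-07) in LC. A stretch of 265 bases of CATSPER2 overlaps STRC in the annotation, and whether the counting used strand is not given in the sources used here, so counts in the overlap are uncertain.

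CATSPER3 was also counted at 30 days, more so in HZ. The libraries of Ha held 35, 22 and 22 counts and those of La 14, 3 and 5. In CPM the gene went from 1.03 ± 0.27 to 18.1 ± 3.21 in HZ and from 0.314 ± 0.243 to 26.6 ± 8.26 in LC (SD, n = 3). The log2 fold change was 4.14 (standard error 0.29, edgeR adjusted p = 2.15e-05) in HZ and 6.37 (standard error 0.45, edgeR adjusted p = 5.16e-06) in LC. Leaving out each library moved it from 3.99 to 4.37 in HZ and from 6.06 to 7.19 in LC, with the highest value without La1.

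CATSPER4 had the lowest level of the pore-forming subunits. At 30 days no library of either breed reached a rounded count of 1. At 120 days it held 2.48, 3.88 and 1.95 CPM in Hb and 2.40, 3.48 and 5.30 CPM in Lb. It was at least 74.4-fold higher at 120 days in HZ and at least 84.0-fold higher in LC by summed counts (edgeR adjusted p = 0.000386 and 0.000114), or 70.8-fold and 85.3-fold by mean CPM against the same floor. CATSPER4 passed the filter only through the 120-day libraries, so its direction was not free to differ. On the scale of log2(FPKM + 1) with limma, the change in HZ was 0.94 and missed the fold threshold, so that 7 of the 10 genes were called there. The gene's annotation overlaps that of CNKSR1 by 1011 bases, so counts of the shared stretch are uncertain.

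The auxiliary subunits, which are membrane proteins with large extracellular parts, were also called higher at 120 days. CATSPERB went from 0.431 ± 0.168 to 68.8 ± 24.02 CPM in HZ and from 0.684 ± 0.385 to 67.5 ± 27.9 CPM in LC (SD, n = 3). Its log2 fold change was 7.31 (standard error 0.43, edgeR adjusted p = 1.13e-05) in HZ and 6.59 (standard error 0.46, edgeR adjusted p = 4.48e-06) in LC. The spread of this gene at 120 days was wide, from 41.1 to 83.9 CPM in Hb and from 45.7 to 99.0 CPM in Lb.

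CATSPERD was at 77.1, 51.0 and 56.8 CPM in Hb and at 51.4, 45.1 and 34.7 CPM in Lb. Its counts at 30 days came from single libraries, with 40.7 estimated counts in Ha1, 39.9 in La3, 7 in La2 and 0 in the other 3. Such uneven values leave the 30-day level poorly defined. The log2 fold change was 6.85 (standard error 1.12, edgeR adjusted p = 0.0012) in HZ and 6.03 (standard error 0.72, edgeR adjusted p = 0.000117) in LC. Without Ha1 no 30-day count remained in HZ and the fitted value went to 13.33, and without La3 the LC value was 8.03, so the size of either change is loosely set. A pseudogene of 2278 bases lies inside the span of CATSPERD, and reads shared with it could not be told apart here.

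CATSPERG was at 40.9, 22.3 and 38.9 CPM in Hb and at 18.9, 18.9 and 17.6 CPM in Lb. At 30 days it reached at most 14.2 estimated counts in a library. The log2 fold change was 6.47 (standard error 0.43, edgeR adjusted p = 1.87e-05) in HZ and 6.95 (standard error 0.73, edgeR adjusted p = 5.34e-05) in LC. The 30-day counts in LC came from La1 alone, and without it the fitted value went to 11.63, which is no estimate of a fold. The LC libraries at 120 days were close to each other, and each was below the lowest HZ library.

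SLC9C1, the sperm sodium/proton exchanger, had a count of 0 in all 6 libraries at 30 days. At 120 days it was at 49.1, 19.2 and 25.5 CPM in Hb and at 21.3, 14.95 and 14.6 CPM in Lb. It was at least 781-fold higher at 120 days in HZ and at least 390-fold higher in LC by summed counts (edgeR adjusted p = 0.000137 and 5.06e-06), or 800-fold and 388-fold by mean CPM against the same floor. SLC9C1 passed the filter only through the 120-day libraries, so its direction was not free to differ. Of the 10 genes it had the highest lower bound.

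HVCN1, the proton channel, stood apart from the 8. Its level was 21.0, 12.4 and 17.4 CPM in Ha, 31.2, 11.6 and 11.6 CPM in Hb, 21.1, 15.8 and 16.3 CPM in La, and 21.9, 16.1 and 10.5 CPM in Lb. The 4 groups overlapped, and the library Hb1 was the highest of the 12. The log2 fold change with age was 0.10 (standard error 0.43, edgeR adjusted p = 0.847) in HZ and -0.12 (standard error 0.26, edgeR adjusted p = 0.701) in LC. Without Hb1 the HZ value was -0.55, without Ha2 it was -0.09, and with library totals in place of TMM it was -0.24, so its sign in HZ was not settled. HVCN1 is also expressed in blood cells, and the pan-leukocyte and macrophage lists fell with age. Of 5 macrophage markers, 5 were called lower in HZ and 4 in LC. Their summed level was 124, 101 and 106 CPM in Ha, 17.4, 20.1 and 10.7 CPM in Hb, 122, 107 and 115 CPM in La and 21.3, 37.8 and 35.9 CPM in Lb. The 7 lymphocyte and pan-leukocyte markers came to between 28.4 and 49.9 CPM in a library at 30 days and between 2.71 and 12.8 CPM at 120 days. Of these, 2 of 3 tested were called lower in HZ and 4 of 5 in LC, and CD79A and MS4A1 had too few counts to be tested. Of all mRNAs tested, 23.2% were called lower in HZ and 20.1% in LC. In the library Hb1 the 7 Leydig cell markers summed to 4065 CPM, against 331 in Hb2 and 268 in Hb3. The part of these cells in the level of HVCN1 was not tested. The annotation of HVCN1 overlaps TCTN1 by 3366 bases, and TCTN1 was called higher with age in both breeds (log2 fold change 1.88 in HZ and 1.82 in LC, edgeR adjusted p = 2.3e-05 and 1.21e-06), so counts of the shared stretch are uncertain.

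**Figure D2:**
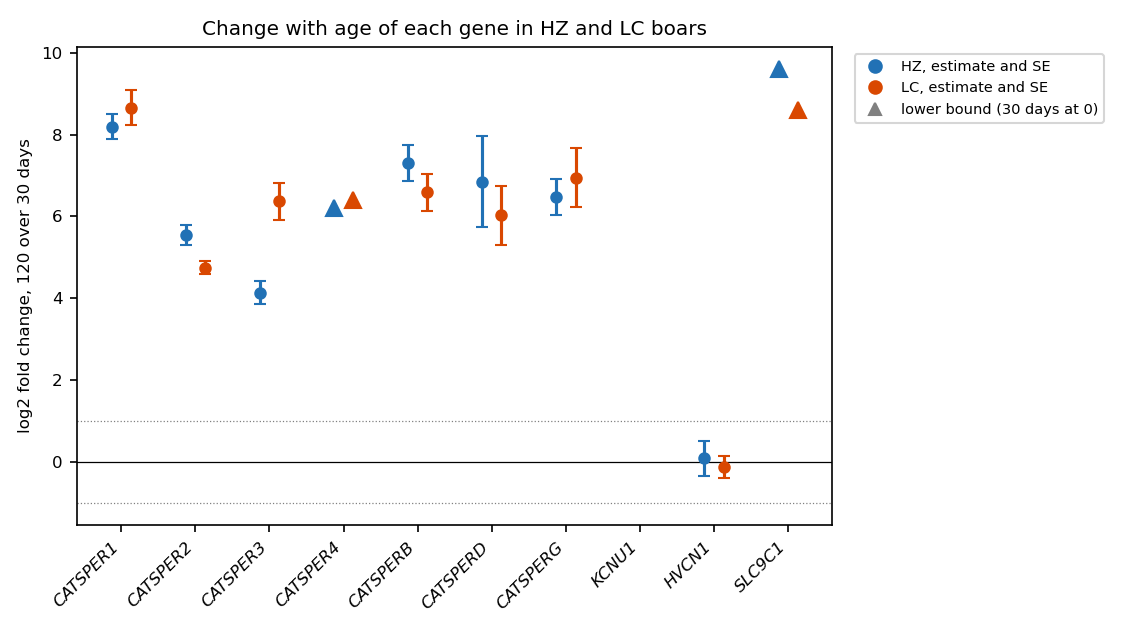
Log2 fold change of each gene at 120 days over 30 days in HZ and LC boars, from edgeR, with standard errors. Triangles are lower bounds for genes with no counts at 30 days, KCNU1 was not tested and is left blank, and dotted lines mark a log2 fold change of 1 in either direction. HVCN1 lies at 0.10 and -0.12, and CATSPER3 has the widest gap between the breeds among genes with an estimate, 4.14 against 6.37.

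KCNU1, the potassium channel, was almost absent. Its estimated counts were 9.20, 0 and 5.27 in Hb and 0, 4.83 and 4.81 in Lb, and 0 in all 6 libraries at 30 days. It was detected in 4 of the 6 libraries at 120 days. It did not pass the filter, and in fits without the filter it was not called, with an edgeR adjusted p of 0.0536 in HZ and 0.0626 in LC and a DESeq2 adjusted p of 0.0869 and 0.181. Its FPKM did not exceed 0.08. LRRC52, the auxiliary subunit of this channel in sperm, reached 47.4 ± 8.43 CPM in 120-day-old HZ and 30.7 ± 3.07 CPM in 120-day-old LC boars (SD, n = 3), and was called higher with age in both breeds (log2 fold change 8.31 and 7.53, edgeR adjusted p = 1.18e-05 and 3.12e-06). With each library left out these ran from 7.87 to 9.51 and from 6.90 to 8.03. LRRC52 had at most 8 counts in a library at 30 days. It passed the filter only through the 120-day libraries, so its direction was not free to differ.

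An assembled lncRNA lies next to KCNU1. KCNU1 spans chromosome 15 from 49317110 to 49444337 in the Sscrofa11.1 annotation. The transcript MSTRG.21183.1 starts 127 bases beyond that end, on the plus strand, with exons from 49444464 to 49444839, from 49447437 to 49447620 and from 49454608 to 49454874. The assembly classes it as intergenic. It had 80, 74 and 49 counts in Hb, 36, 60 and 67 in Lb and 0 in each library at 30 days. It was thus counted in all 6 libraries at 120 days, where KCNU1 itself had at most 9.20 counts. By lncRNA totals it was at least 60.2-fold higher with age in HZ and at least 43.2-fold higher in LC (edgeR adjusted p over the lncRNA table = 0.000758 and 0.000574). It passed the filter only through the 120-day libraries, so the direction of this test was not free to differ. Of all lncRNA transcripts tested, 38.6% were called higher in Ha vs Hb, against 41.8% in La vs Lb. Between the breeds at 120 days its log2 fold change was -0.39 (standard error 0.37, edgeR adjusted p = 0.649), with 3.14% of lncRNAs called in either direction. The strand of KCNU1 is not given in the gene table used here, so which end of the gene the transcript adjoins is not known. Whether it belongs to the same transcription unit was not tested.

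**Figure D3:**
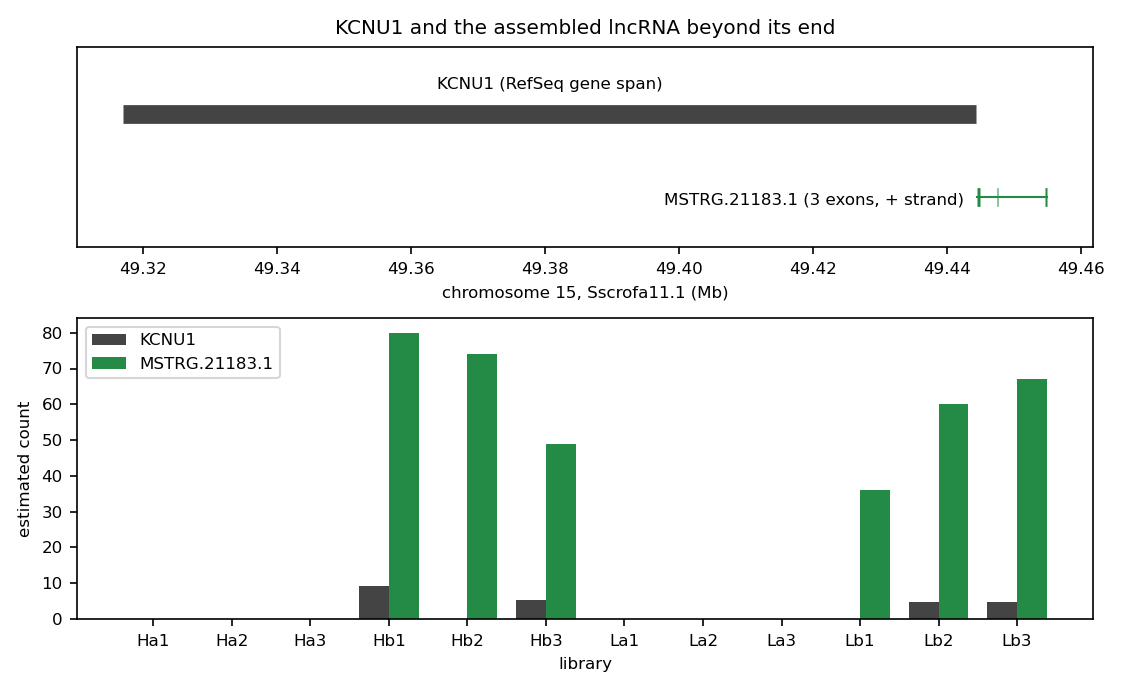
Upper panel: the annotated span of KCNU1 and the 3 exons of the assembled lncRNA MSTRG.21183.1 on chromosome 15 of Sscrofa11.1, to scale. Lower panel: estimated counts of both in each of the 12 libraries; the lncRNA has between 36 and 80 counts in each 120-day library, and KCNU1 at most 9.20.

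Of the 10706 lncRNAs, 1 other lay within 10 kb of one of the 10 genes. This was LOC106509306, 3962 bases from CATSPER1, and it was at 0 in all 12 libraries. No lncRNA overlapped any of the 10 genes.

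The rise of the 8 genes ran beside that of the germ cell markers. Of 9 spermatid markers tested, all 9 were called higher with age in each breed, with a median log2 fold change of 11.06 in HZ and 9.25 in LC. The median over all mRNAs tested was -0.02 in HZ and 0.01 in LC, and 28.2% of them were called higher in HZ and 27.5% in LC. Several spermatid markers had few counts at 30 days, with at most 2 in a library for TNP1 and 6 for PRM2. Those could pass the filter only through the 120-day libraries, so this count of calls and its median carry less than their size. The 10 spermatid markers summed to between 4.43 and 8.87 CPM in a library at 30 days, to 6522, 5787 and 8229 CPM in Hb and to 4192, 3451 and 3153 CPM in Lb. Of 8 spermatocyte markers, 8 were called higher in each breed, and their sum was between 12.7 and 35.6 CPM at 30 days and between 485 and 783 CPM at 120 days. In whole testis, more cells of a type and more RNA in each cell cannot be told apart. For the 9 genes tested the median log2 fold change was 6.85 in HZ and 6.59 in LC, or 6.47 and 6.39 with genes absent at 30 days set at their lower bound.

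Markers of spermatogonia and somatic cells were looked at in the same way. Of 11 spermatogonial markers, 3 were called higher and 6 lower in HZ, and 4 higher and 5 lower in LC. They summed to between 222 and 369 CPM at 30 days and between 638 and 857 CPM at 120 days. DDX4 alone gave between 366 and 629 CPM at 120 days, against 11.9 to 22.7 CPM at 30 days. None of the somatic markers of Sertoli, Leydig or endothelial cells was called higher. Of 8 Sertoli cell markers 4 were called lower in each breed, and of 7 Leydig cell markers 4 in HZ and 5 in LC. Of 5 endothelial markers 5 were called lower in HZ and 3 in LC. Of 10 peritubular and stromal markers 8 were called lower in HZ, and 5 lower and 1 higher in LC. Of all mRNAs tested, 28.2% were called higher and 23.2% lower in HZ, and 27.5% higher and 20.1% lower in LC. The part of cell makeup in the rise of the 8 genes was not tested.

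The comparison of breeds at 30 days, Ha vs La, asked whether HZ and LC differ before maturity. Only 4 of the 10 genes had enough counts to be tested, and edgeR called 0 of them, with 2 at an unadjusted p under 0.05. DESeq2 and limma on log2(FPKM + 1) also called 0. Of all mRNAs tested, 3.6% were called higher and 4.01% lower in La. CATSPER2 pointed higher in La (log2 fold change 0.58, standard error 0.21, edgeR adjusted p = 0.088), and each library of La lay above those of Ha. CATSPER3 went the other way, with 1.34, 0.883 and 0.854 CPM in Ha and 0.594, 0.151 and 0.199 in La. Each library of La lay below those of Ha, and the log2 fold change was -1.68 (standard error 0.55, edgeR adjusted p = 0.0634). The share of all mRNAs not overlapping between the breeds at 30 days was not computed, so these separations are a description only. CATSPER3 was called lower in La without La1 (adjusted p = 0.0292), with all 12 libraries in one edgeR fit (adjusted p = 0.0361) and with limma on log2(FPKM + 0.1) (adjusted p = 0.0292). Its adjusted p ran from 0.0237 to 0.0804 over the other settings and from 0.0292 to 0.187 with each library left out. CATSPERB (log2 fold change 0.68, edgeR adjusted p = 0.417) and HVCN1 (0.06, edgeR adjusted p = 0.859) overlapped between the breeds. Of the germ cell markers, 4 of 8 of spermatocytes and 1 of 10 of spermatogonia were called lower in La at this age, and 0 of 5 of spermatids were called. The spermatocyte markers had sums of 31.7, 35.6 and 19.9 CPM in Ha and 16.1, 14.1 and 12.7 CPM in La. Among somatic markers, 3 of 8 of Sertoli cells, 1 of 7 of Leydig cells and 2 of 5 of leukocytes were called higher in La. The sum of the Sertoli cell markers was 1269, 1209 and 1664 CPM in Ha and 2641, 3212 and 2914 CPM in La. The part of either in the values of CATSPER3 was not tested.

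At 120 days, Hb vs Lb, 9 genes were tested and edgeR called 0, with 3 at an unadjusted p under 0.05. DESeq2 called 0 with 4 at an unadjusted p under 0.05, and limma called 0. Of all mRNAs tested, 2.65% were called higher and 1.2% lower in Lb. CATSPERG came nearest, at 34.1 ± 10.2 CPM in Hb and 18.4 ± 0.758 CPM in Lb (SD, n = 3). Its log2 fold change was -0.83 (standard error 0.23, edgeR adjusted p = 0.075), with all 3 Lb libraries below all 3 Hb libraries. Without Hb2, the lowest HZ library for this gene, it was called lower in LC at -1.05 (adjusted p = 0.0197). Its adjusted p ran from 0.0126 to 0.209 over the other settings, with a log2 fold change between -0.89 and -0.54, and from 0.0197 to 0.209 with each library left out. SLC9C1 was also at -0.83 (standard error 0.34, edgeR adjusted p = 0.176), with overlapping groups. CATSPERD was at -0.45 (standard error 0.20, edgeR adjusted p = 0.21). CATSPER3 pointed the other way at 0.59 (standard error 0.25, edgeR adjusted p = 0.181), and CATSPER1 at 0.29 (standard error 0.16, edgeR adjusted p = 0.308). In FPKM, but not in CPM, every Lb library of these 2 pore subunits lay above every Hb library. With limma on log2(FPKM + 0.1) the median log2 fold change over all mRNAs tested was 0.12, against 0.004 in the main fit. The share of all mRNAs not overlapping between the breeds at 120 days was not computed, in CPM or in FPKM. CATSPER2, CATSPER4, CATSPERB and HVCN1 had log2 fold changes between -0.17 and 0.45 and overlapped. A miss of the threshold does not show that the breeds were alike.

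Markers were also compared between the breeds at 120 days, where 2.65% of all mRNAs tested were called higher and 1.2% lower in Lb. Of 10 spermatid markers 1 was called lower in Lb, and the median log2 fold change of the list was -0.80. Of 10 peritubular and stromal markers 5 were called higher in Lb, and their sum was 607, 354 and 255 CPM in Hb against 3083, 3007 and 2570 CPM in Lb. The median log2 fold change of that list was 1.66. Of 7 Leydig and 8 Sertoli cell markers none was called, with medians of 1.95 and 0.51. The Leydig cell sums were 4065, 331 and 268 CPM in Hb and 4921, 7415 and 3085 CPM in Lb, which overlap through Hb1. Of 5 endothelial markers 1 was called higher in Lb, and so was 1 of 5 macrophage markers. The part of these differences in the values of the 10 genes was not tested.

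Whether the change with age differed between the breeds was tested as an interaction over all 12 libraries. Of 9 genes tested, CATSPER3 was called, against 5.14% of all mRNAs. Its increase was larger in LC by 2.22 on the log2 scale (standard error 0.55, edgeR adjusted p = 0.0359), with the breeds further apart at 30 days than at 120 days. DESeq2 and limma also called it. The call was lost without any one of Ha1, Ha2, Hb3, La2, La3, Lb1 or Lb2, where the adjusted p was 0.0856, 0.0631, 0.0638, 0.0748, 0.09, 0.0518 and 0.0725 in that order. The log2 difference ran from 1.94 (without Lb2) to 3.05 (without La1) over all 12 such fits. CATSPER2 had the next smallest adjusted p, with an increase smaller in LC by a log2 difference of -0.81 (standard error 0.26, edgeR adjusted p = 0.0833). For the other genes the adjusted p was 0.557 or higher. CATSPER4 and SLC9C1 had no counts at 30 days in either breed, so their interaction could not be estimated.

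In FPKM, the levels of the subunits at 120 days spanned a wide range. CATSPER2 was the highest of the 10 genes in both breeds, at 44.0 ± 8.54 FPKM in Hb and 42.4 ± 2.22 in Lb (SD, n = 3), and did not overlap with CATSPER1, at 12.8 ± 1.10 and 16.9 ± 2.49. In Hb, CATSPER1, CATSPERB (11.5 ± 3.45) and CATSPERD (11.15 ± 1.73) overlapped with each other, as neighbours in the order. They were followed by CATSPER3 (8.12 ± 1.07), CATSPERG (4.99 ± 1.22), SLC9C1 (4.31 ± 1.88) and HVCN1 (3.58 ± 2.01). In Lb the order was CATSPER1, CATSPER3 (13.3 ± 3.62), CATSPERB (12.8 ± 4.98), CATSPERD (8.86 ± 1.27), HVCN1 (3.65 ± 1.09), CATSPERG (3.06 ± 0.0643) and SLC9C1 (2.65 ± 0.518), each overlapping with the next but for CATSPERD and HVCN1. CATSPER4 (0.94 ± 0.404 in Hb and 1.38 ± 0.629 in Lb) and KCNU1 (0.0467 ± 0.0416 and 0.03 ± 0.0265) were lowest in both. At 30 days HVCN1 had the highest FPKM of the 10 genes, 4.99 ± 1.28 in Ha and 5.14 ± 0.804 in La, followed by CATSPER2 at 1.36 ± 0.0833 and 2.07 ± 0.325.

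The subunits of a shared complex were also set against CATSPER1 within each library at 120 days, which removes differences common to all of them. The FPKM of CATSPER2 was 3.00 ± 0.824 times that of CATSPER1 over the 6 libraries (SD, n = 6), that of CATSPER3 0.703 ± 0.112 times, that of CATSPERB 0.855 ± 0.342 times and that of CATSPER4 0.0766 ± 0.0285 times. For these subunits the breeds overlapped. For CATSPERG the ratio was 0.437, 0.258 and 0.49 in Hb and 0.208, 0.154 and 0.187 in Lb. CATSPERD gave 1.010, 0.725 and 0.879 in Hb and 0.696, 0.453 and 0.454 in Lb. Both were lower in every LC library than in any HZ library, which 3 libraries against 3 cannot bring below an exact permutation p of 0.1, and no test was run on them. Of all mRNAs tested in Hb vs Lb, 24.9% had such a ratio to CATSPER1, not overlapping and lower in Lb, so a lower ratio is common and is not a mark of these subunits. The ratio follows CATSPER1 as well as the subunit, and CATSPER1 had the higher FPKM in Lb.

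**Figure D4:**
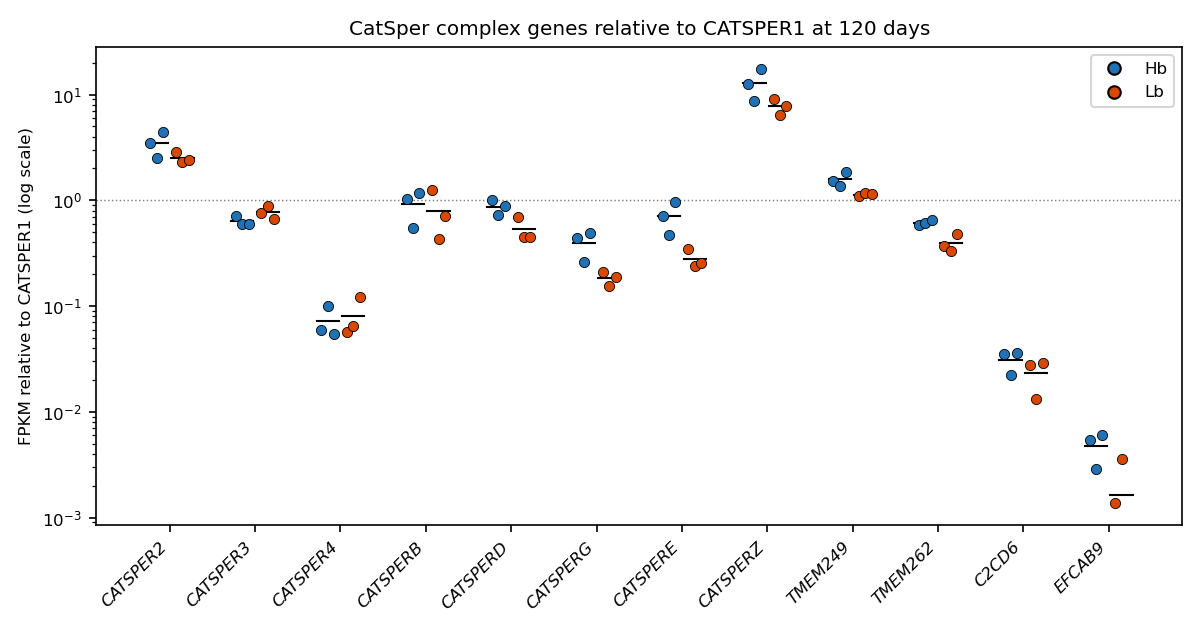
FPKM of CatSper complex genes relative to CATSPER1 in the same library at 120 days, on a log axis, with points for libraries and lines for group means of Hb and Lb. The library Lb3 of EFCAB9 is at 0 and is not drawn. Groups do not overlap for CATSPERD, CATSPERG, CATSPERE, TMEM249 and TMEM262, with Lb lower in each, as for 24.9% of all mRNAs tested.

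The other genes of the CatSper complex were CATSPERE, CATSPERZ, EFCAB9, TMEM249, TMEM262 and C2CD6. Of these 6, 5 were tested and called higher with age in each breed, where 28.2% of all mRNAs were in HZ and 27.5% in LC. Their median log2 fold change was 5.91 in HZ and 5.26 in LC. TMEM262, with at most 4 counts in a library at 30 days, passed the filter only through the 120-day libraries. Its direction was therefore not free to differ. CATSPERZ and C2CD6 had fewer than 3 libraries over the filter at 30 days in each breed, so they would not have passed on those alone. The count of calls thus carries less than its size. CATSPERZ, a small cytoplasmic subunit, went from 0.496 ± 0.0941 to 378 ± 113 CPM in HZ and from 0.57 ± 0.292 to 265 ± 16.6 CPM in LC (SD, n = 3). EFCAB9, the calcium-binding partner of CATSPERZ, had at most 6.02 counts in a library and did not pass the filter. In fits without the filter it was called higher in HZ (edgeR adjusted p = 0.0151, DESeq2 adjusted p = 0.028) but not in LC (0.0832 and 0.273). Its FPKM at 120 days was 0.06 ± 0.0173 in Hb and 0.03 ± 0.0361 in Lb, against 163 ± 42.8 and 129 ± 4.26 for CATSPERZ (SD, n = 3). TMEM262 had 2 counts over La, from which its count ratio at 120 days was 172 (95% exact counting interval 47.2 to 1425). These counts came from La1 alone. With each library left out its log2 fold change ran from 6.29 to 10.14 in HZ and from 6.63 to 9.76 in LC. The size of either change is thus loosely set. C2CD6 had a log2 fold change of 3.14 in HZ and 3.03 in LC. With limma on log2(FPKM + 1) its change was 0.40 in HZ and 0.39 in LC and missed the fold threshold, so that 4 of the list were called there in each breed.

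CATSPERE, another auxiliary subunit, was called lower in LC at both ages. Its level was 1.69, 3.05 and 1.24 CPM in Ha and 0.467, 0.452 and 0.795 CPM in La, and the breeds did not overlap. At 120 days it was 52.7, 31.8 and 60.8 CPM in Hb and 24.6, 22.9 and 19.1 CPM in Lb, again without overlap. How many of all mRNAs did not overlap between the breeds was not computed at either age. The log2 fold change was -1.79 at 30 days (standard error 0.46, edgeR adjusted p = 0.0287) and -1.07 at 120 days (standard error 0.24, edgeR adjusted p = 0.0448). Both calls were near the threshold. At 30 days the call was lost on leaving out any one of Ha1, Ha2, La1, La2 or La3 (adjusted p 0.0601, 0.101, 0.0911, 0.0934 and 0.0545), and at 120 days any one of Hb1, Hb3, Lb1, Lb2 or Lb3 (adjusted p 0.0872, 0.133, 0.105, 0.14 and 0.145). With each library left out its log2 fold change ran from -2.09 to -1.34 at 30 days and from -1.29 to -0.87 at 120 days. Limma on log2(FPKM + 1) called it at neither age, and limma on log2(FPKM + 0.1) did not call it at 120 days (adjusted p = 0.0531). With the replicate number as a block, edgeR called it at neither age (log2 fold change -1.72 and -1.04, adjusted p = 0.0743 and 0.0976). Over the other settings its adjusted p ran from 0.00828 to 0.0743 at 30 days and from 0.00109 to 0.0976 at 120 days. The interaction was not called (log2 difference 0.65, edgeR adjusted p = 0.462). The 4 other genes tested at 120 days were not called.

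Among 13 other genes of sperm ion and pH control found in the table, 12 were tested and 5 were called higher with age in each breed, with 28.2% of all mRNAs called higher in HZ and 27.5% in LC. These were LRRC52, the soluble adenylyl cyclase ADCY10, the exchanger SLC9B1, the anion transporter SLC26A8 and the sperm membrane protein PKDREJ, with log2 fold changes between 4.55 and 8.31 in HZ and between 5.18 and 8.43 in LC. Among them, LRRC52 passed the filter only through the 120-day libraries. SLC9B1 had fewer than 3 libraries over the filter at 30 days in each breed, so it would not have passed on those alone. PKDREJ had 5323 ± 1678 CPM at 120 days in HZ and 3945 ± 684 CPM in LC (SD, n = 3). The carbonic anhydrase CA4 was called lower in both breeds (-2.11 and -1.07) and the anion channel CFTR in LC (-3.39), with 23.2% and 20.1% of all mRNAs called lower. These counts moved with the setting, since 2 of the list were called lower in HZ under 4 alternatives and 1 in LC with limma on log2(FPKM + 1). The median of the list was 0.85 in HZ and 0.84 in LC. Between breeds at 30 days 1 of 11 tested was called, the lipid hydrolase ABHD2, lower in La (log2 fold change -1.12, edgeR adjusted p = 0.00232). Of all mRNAs tested there, 3.6% were called higher and 4.01% lower in La. At 120 days 0 of 12 were called, where 2.65% of all mRNAs were called higher and 1.2% lower in Lb.

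Related channels and exchangers that are not known as sperm-specific made up a further list. Of 16 tested in HZ, 3 were called higher and 6 lower, where 28.2% and 23.2% of all mRNAs were. Of 17 tested in LC, 1 was called higher and 7 lower, where 27.5% and 20.1% of all mRNAs were. With limma on log2(FPKM + 1), 2 were called higher and 4 lower in HZ, and 1 higher and 4 lower in LC. With limma on log2(FPKM + 0.1), 8 were called lower in each breed. The lists were not tested against each other. The median log2 fold change was -0.44 in HZ and -0.93 in LC. KCNMA1, the closest relative of KCNU1, was called lower in both breeds (log2 fold change -1.44 and -2.12). The exchanger SLC9A2 was called higher in both (2.90 and 2.75). KCNT1, a sodium-activated potassium channel, was at 0.302, 2.73 and 1.29 CPM in Ha, at 16.1, 17.3 and 15.4 CPM in Hb and at or below 3.14 CPM in all 6 LC libraries. It was called higher with age in HZ (log2 fold change 3.50, edgeR adjusted p = 0.00204), lower in Lb than in Hb (-2.63, standard error 0.34, edgeR adjusted p = 0.0119) and in the interaction (-3.38, standard error 0.80, edgeR adjusted p = 0.0305). Leaving out Lb2 took the breed comparison past the threshold (adjusted p = 0.0544). The interaction call was lost without any one of Ha3, Hb3, La1, La2, La3, Lb1 or Lb2, with an adjusted p between 0.0509 and 0.0749. The change in HZ ran from 3.01 to 4.33 and the interaction from -4.22 to -2.85 as each library was left out.

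As a description of likeness, each gene was correlated with all other varying mRNAs as log2(CPM + 1) over the 12 libraries, which fall into 2 ages. The highest r was that of TEX38 (0.999) and SAXO1 (0.999) with CATSPER1, and of YPEL1 (0.999) and CCIN (0.998) with CATSPER2. CATSPER3 was closest to ACTL6B (0.993) and TBCB (0.993), and CATSPER4 to TRIML1 (0.987) and ANKRD61 (0.984). CATSPERB was closest to AARD (0.997) and POLB (0.996), CATSPERD to FHL5 (0.994) and SLC30A1 (0.993), and CATSPERG to DYM (0.998) and FAM161A (0.998). SLC9C1 was closest to CDKN3 (0.998) and DENR (0.998). An r of at least 0.95 was reached by 2417 of 20653 mRNAs with CATSPER1 and by between 569 (CATSPER4) and 2939 (CATSPERG) with the other genes named so far. These values reflect a contrast of ages that many mRNAs share. For HVCN1 (CABP4, 0.887, and CREB3, 0.872) and KCNU1 (CRYBB2, 0.934, and C15H2orf66, 0.932) no mRNA reached 0.95.

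The 10 genes lie apart from each other in the genome. In Sscrofa11.1, CATSPER1 lies on chromosome 2 from 6312906 to 6321690, CATSPERD on chromosome 2 from 73207458 to 73266158 and CATSPER3 on chromosome 2 from 137139743 to 137175305. CATSPERG lies on chromosome 6 from 47252307 to 47282833 and CATSPER4 on chromosome 6 from 83607607 to 83627860. CATSPER2 is on chromosome 1 from 127814349 to 127831023, CATSPERB on chromosome 7 from 113201785 to 113293597, SLC9C1 on chromosome 13 from 147517985 to 147612667 and HVCN1 on chromosome 14 from 32006837 to 32044165. Neighbours within 10 kb did not all move with them. STRC, which overlaps CATSPER2, was called higher with age in both breeds (log2 fold change 3.36 and 4.92), and so was PRR22, 2479 bases from CATSPERD (5.83 and 4.90). DUS3L, 4782 bases from CATSPERD, and PSMD8, 7058 bases from CATSPERG, were also called higher in both (2.42 and 1.21, and 1.04 and 1.23). LONP1, 152 bases from CATSPERD on the other side, was called lower in HZ (-1.77), as was CNKSR1 at CATSPER4 (-2.41). In LC, LONP1 missed the fold threshold (-0.78, edgeR adjusted p = 0.00221) and CNKSR1 that of the adjusted p (-1.71, edgeR adjusted p = 0.0669). KCNK6 near CATSPERG was called lower in both breeds (-1.34 and -1.36). CST6, 2047 bases from CATSPER1, was called lower in LC (-3.18) and did not pass the filter in HZ. PDIA3, 253 bases from CATSPER2, pointed higher in both breeds (0.90 and 0.54, edgeR adjusted p = 0.000261 and 0.00144) but missed the fold threshold. PCBD2, 4568 bases from CATSPER3 (-0.51 with edgeR adjusted p = 0.0399 in HZ, and 0.01 in LC), was called in neither breed. The same held for GAL3ST3, 6706 bases from CATSPER1 (-0.85 and -0.66). Of all mRNAs tested, 28.2% were called higher and 23.2% lower with age in HZ, and 27.5% and 20.1% in LC.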

How the data were processed

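Testis RNA of 12 boars was sequenced, 3 per breed at each age. The authors removed ribosomal RNA and made strand-specific libraries. Per the labels and the methods, reads were filtered with fastp 0.18.0 and Bowtie2 2.2.8, mapped to Sscrofa11.1 with HISAT2 2.1.0 and assembled with StringTie 1.3.4. The authors deposited estimated counts that are not normalized and need not be whole (the counting tool is not given in the sources used here), and FPKM values rounded to 2 decimals. The deposited FPKM values, computed with StringTie, are scaled by length and mapped fragments.

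Counts were rounded, filtered with filterByExpr (minimum count 10), scaled by TMM and tested with edgeR 4.0.16 in R 4.3.3, on the 6 libraries of each comparison and on all 12 for the interaction, over the whole mRNA table or the whole lncRNA table. The steps were tested on simulated data. The standard error was derived from the log2 fold change and edgeR's F value, as |log2 fold change| / sqrt(F). Floors and intervals cover counting error only. Alternatives were DESeq2 1.42.0, limma 3.58.1 on log2(FPKM + 1), with and without a filter of 0.1 FPKM in 3 libraries, or on log2(FPKM + 0.1), other filters and scalings, one fit of all libraries, no minimum fold change, the replicate number as a block and leaving out each library. For the ratios, counts per implied length replaced FPKM. Other computations used Python 3.11.15, numpy 2.4.6, pandas 2.3.3, scipy 1.17.1 and matplotlib 3.10.9.

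All 10 genes, the genes of 3 further lists of ion transport and 9 marker lists were eligible to be named, and neighbours were taken within 10 kb. Of 16 sperm ion and pH genes listed, SLC9C2, ATP1A4 and CA2 were not matched. For likeness, the 2 mRNAs with a symbol and the highest Pearson r were named. Members and lists were chosen with earlier results of these data known. Sequence features were not analysed here.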

Additional observations from a re-analysis of the deposited data

Results flagged for a closer look

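The change with age of CATSPER3 differed between the breeds in the interaction test, at a log2 difference of 2.22 (LC minus HZ). Its call was lost without any one of Ha1, Ha2, Hb3, La2, La3, Lb1 or Lb2, with an adjusted p between 0.0518 and 0.09. The change of KCNT1 with age also differed, at a log2 difference of -3.38. Its call was lost without any one of Ha3, Hb3, La1, La2, La3, Lb1 or Lb2, with an adjusted p between 0.0509 and 0.0749. Groups of 3 libraries were too small to be tested for single libraries that stand apart.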

How the results depend on the processing

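The fold changes of the 9 genes that passed the filter, in the comparisons where they were tested, those of CATSPERE, CATSPERZ, TMEM249, TMEM262, C2CD6, LRRC52, ADCY10, SLC9B1, SLC26A8, PKDREJ, SLC9A2 and KCNT1 in the comparisons where they were called, and the ratios to CATSPER1 were computed again under the alternatives that apply to each. The ratios had 1 alternative, and the interaction had no separate fit of all 12 libraries. Other single genes, neighbours and lncRNA fold changes were not computed again. KCNU1 did not pass the filter. Of the values computed, 993 kept their call and sign, or for a ratio stayed within its SD, 38 lost the call, 31 changed sign and 4 gained a call. Sizes could still differ among those that kept call and sign. Of the numbers of the 10 genes called and of lncRNAs near them, 74 stayed within a factor of 1.5 and 13 did not.

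The number of the 10 genes called stayed at 8 in La vs Lb under every alternative, and at 8 in Ha vs Hb apart from 7 with limma on log2(FPKM + 1), with and without the filter, where CATSPER4 changed by 0.94.

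In Ha vs La the number called was 0. It was 1 with all 12 libraries in one fit (CATSPER3 at -1.67, adjusted p = 0.0361) and 1 with limma on log2(FPKM + 0.1) (CATSPER3 at -1.46, adjusted p = 0.0292). With each library left out it went from 0 (without Ha1) to 1 (without La1, CATSPER3 at -2.49, adjusted p = 0.0292). In Hb vs Lb it was 0, and with each library left out it went from 0 (without Hb1) to 1 (without Hb2, CATSPERG at -1.05, adjusted p = 0.0197). In the interaction it was 1, and with each library left out it went from 0 (without Ha1) to 1 (without Ha3). The lncRNAs near the 10 genes numbered 2 within 10 kb, 0 by overlap alone and 4 within 50 kb.

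Signs changed only for values that were not called. HVCN1 in Ha vs Hb was 0.10, and it was -0.24 with library totals without TMM, -0.57 with limma on log2(FPKM + 0.1), -0.45 with limma on log2(FPKM + 1) with or without the filter and -0.0355 with the replicate block. HVCN1 in Hb vs Lb was -0.11, and 0.11 with limma on log2(FPKM + 0.1) and 0.0785 with limma on log2(FPKM + 1) with or without the filter. HVCN1 in the interaction was -0.22, and 0.0530 and 0.0293 with these. CATSPERB in Hb vs Lb was 0.03, and -0.0258 with all 12 libraries in one fit. CATSPERB in the interaction was -0.73, and 0.0483 with limma on log2(FPKM + 1) with or without the filter. CATSPERG in the interaction was 0.47, and -0.14 with limma on log2(FPKM + 0.1) and -0.47 with limma on log2(FPKM + 1) with or without the filter.

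With each library left out, CATSPERB in Hb vs Lb went from -0.35 (without Lb1) to 0.25 (without Lb2). CATSPERD in the interaction went from -7.31 (without Ha1) to 1.22 (without La3), and CATSPERG in the interaction from -0.10 (without La3) to 5.17 (without La1). HVCN1 went from -0.55 (without Hb1) to 0.34 (without Hb3) in Ha vs Hb, from -0.39 (without Lb1) to 0.11 (without Lb3) in La vs Lb, from -0.12 (without Ha2) to 0.25 (without Ha1) in Ha vs La, from -0.38 (without Lb1) to 0.51 (without Hb1) in Hb vs Lb and from -0.50 (without Lb1) to 0.45 (without Hb1) in the interaction.

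With the replicate number as a block, 8 of the 10 genes were called with age in each breed, 0 between the breeds at each age and 1 in the interaction. CATSPERE was no longer called in Ha vs La (adjusted p = 0.0743) or Hb vs Lb (adjusted p = 0.0976). Its log2 fold changes were then -1.72 and -1.04, against -1.79 and -1.07 without the block. After group means were removed, libraries of the same number were correlated at between -0.0222 and 0.0527, and those of different numbers at between -0.146 and 0.122. In Ha vs Hb the same-number values were 0.0527, 0.0157 and 0.0496, and the others did not exceed 0.00455. With 3 libraries in a group these values cannot settle whether the numbers mark a pairing.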
